A study of Mus musculus with 4 samples.

Results

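The 10 genes described here act in feedback on fibroblast growth factor (FGF) signalling or are classic transcriptional targets of it, and were measured in iMOPs, a mouse cell line made by immortalizing otic progenitors. They were the Sprouty genes Spry1, Spry2 and Spry4, the Sprouty-related genes Spred1 and Spred2, the dual-specificity phosphatase genes Dusp4 and Dusp6, and the ETS family transcription factor genes Etv1, Etv4 and Etv5. The genes were chosen by name, and all 10 were found among the 49997 gene rows of the count tables, with 9 among the 9009 genes that had enough counts to test. The libraries labelled neuron came from cells in Neurobasal medium that held 1X N21, L-glutamine at 2 mM and the CDK2 inhibitor K03861 at 1 µM, and no bFGF is stated for them. The libraries labelled proliferating came from cells in DMEM/F12 that held 1X N21, the antibiotic carbenicillin at 25 µg/ml and bFGF (basic FGF, also called FGF2) at 20 ng/ml. All cells were wild-type and of the 1 line, and there were 2 libraries per group, with replicate numbers 1 and 2. Separate cultures are not stated for libraries of the same group, so p-values measure only the spread between these libraries. That spread is partly pooled over genes in every model used.

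FGF ligands bind receptor tyrosine kinases that activate Ras, RAF, MEK and the kinase ERK. ERK signalling turns on genes that damp the pathway again: Sprouty and Spred proteins restrain the step from receptor to RAF, and Dusp4 and Dusp6 remove the activating phosphates from ERK. Etv1, Etv4 and Etv5, the PEA3 group of ETS factors, are induced by FGF in many embryonic tissues and carry the signal to further genes. In the inner ear, FGF signals induce the otic placode and later shape the growth and fate of otic progenitors and their neighbours.

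Promoter windows from 250 bases before to 50 bases after the transcription start are shown for 3 inhibitors that behaved differently. Spry2 had the most negative log2 fold change of the tested members in the model with replicate number. Spry1 was high in 1 library, and the level of Spred2 varied little. The sequences are RefSeq's on GRCm38.p6, 5′ to 3′ on the gene's strand, at chr14:105896770-105897069 (minus strand) for Spry2, chr3:37639697-37639996 (plus strand) for Spry1 and chr11:19924192-19924491 (plus strand) for Spred2. Capitals mark GGAA or its reverse complement TTCC, the core that ETS factors bind, and, in Spry2, also the longer ETS sequence CCGGAA, which overlaps 1 of those cores.
Spry2: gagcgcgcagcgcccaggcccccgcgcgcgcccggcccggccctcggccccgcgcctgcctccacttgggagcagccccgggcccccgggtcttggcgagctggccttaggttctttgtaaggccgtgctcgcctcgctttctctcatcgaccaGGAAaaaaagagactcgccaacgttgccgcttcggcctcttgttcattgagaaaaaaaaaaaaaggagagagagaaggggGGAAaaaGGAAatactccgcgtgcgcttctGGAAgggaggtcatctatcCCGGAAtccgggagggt
Spry1: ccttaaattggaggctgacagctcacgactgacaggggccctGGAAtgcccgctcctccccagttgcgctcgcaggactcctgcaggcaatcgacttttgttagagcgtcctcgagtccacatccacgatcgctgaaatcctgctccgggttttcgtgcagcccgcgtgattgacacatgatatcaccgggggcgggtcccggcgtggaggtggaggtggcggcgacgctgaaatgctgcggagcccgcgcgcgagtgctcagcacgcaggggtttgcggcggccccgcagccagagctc
Spred2: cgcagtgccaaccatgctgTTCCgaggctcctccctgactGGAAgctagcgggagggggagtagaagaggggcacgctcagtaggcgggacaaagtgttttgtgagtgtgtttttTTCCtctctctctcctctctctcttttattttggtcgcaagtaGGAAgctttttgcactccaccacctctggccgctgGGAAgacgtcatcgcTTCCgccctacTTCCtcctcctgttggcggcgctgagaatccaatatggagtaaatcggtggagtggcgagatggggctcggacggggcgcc
The GGAA core occurred 5 times in the Spry2 window, 1 time in that of Spry1 and 7 times in that of Spred2. It is common, since 96.0% of 32851 promoter windows of the same length held it on either strand, with a median of 3 matches. CCGGAA lay 33 bases after the start site of Spry2. It was in no other of the 9 windows found for 7 members, against 14.9% of all windows. None of the 9 windows held the AP-1 sequence TGANTCA, the cAMP response element TGACGTCA or a CArG box on either strand, which 7.81%, 1.79% and 1.63% of all windows held. Spry4, Dusp4 and Etv4 had no window in the table.

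Total counts per library ran from 3150354 to 32913243, of which 88.2% to 98.1% fell on 7 ribosomal RNA or rRNA-like genes. With these set aside, 3241915 and 617872 counts remained in neuron 1 and neuron 2, and 292302 and 614465 in proliferating 1 and proliferating 2. Levels are given as CPM, counts relative to the remaining library total after TMM scaling. A count of 0 would allow, at 3 counts, up to 0.765, 5.96, 9.36 and 5.27 CPM in neuron 1, neuron 2, proliferating 1 and proliferating 2. Libraries sharing a number were closer than libraries sharing a group. Pearson's r of log2 CPM, computed over genes (not independent replicates), was 0.78 within number 1 and 0.82 within number 2, against 0.50 between the neuron libraries and 0.40 between the proliferating libraries. Mitochondrial messenger RNAs took 2.53% and 2.35% of the remaining counts in neuron 1 and proliferating 1, and 14.6% and 10.6% in neuron 2 and proliferating 2. Each result is therefore also given within each number, where there is 1 library per group and no test.

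Marker genes of division, and most of the tested neuron markers, went against the labels. All 10 dividing-cell markers were higher in the neuron libraries within both numbers, and they summed to 2073 and 4678 CPM in neuron 1 and neuron 2 and to 259 and 709 CPM in proliferating 1 and proliferating 2. The proliferation marker Mki67 had 1947 and 791 counts in the neuron libraries, or 497 and 1572 CPM. In the proliferating libraries it had 15 and 97 counts, or 46.8 and 171 CPM. Top2a, a topoisomerase of dividing cells, had 2357 and 568 counts (601 and 1129 CPM) against 24 and 76 (74.8 and 134 CPM). Among 15 neuron markers 7 could be tested, and 6 of them were lower in the neuron libraries within both numbers and 0 higher. The markers of the neuron list summed to 1429 and 1481 CPM in the neuron libraries and to 2398 and 2802 CPM in the proliferating libraries. Stmn2, a microtubule regulator of growing neurons, had 36 and 3 counts in the neuron libraries, or 9.18 and 5.96 CPM. In the proliferating libraries it had 24 and 78 counts, or 74.8 and 137 CPM. Tubb3, a neuronal tubulin, had 1482 and 8 counts (378 and 15.9 CPM) against 237 and 60 (739 and 105 CPM). Not every neuron marker ran this way, as a pair of genes picked after their values were seen shows. Rbfox3, which encodes the neuronal antigen NeuN and did not pass the count filter, had 176 and 3 counts (44.9 and 5.96 CPM) in the neuron libraries against 4 and 2 (12.5 and 3.52 CPM) in the proliferating libraries. Dcx, a microtubule protein of young neurons, had log2 ratios of 0.57 in number 1 and -0.31 in number 2. The otic progenitor list, by contrast, summed higher in the proliferating libraries, the direction of the labels, at 2114 and 1928 CPM against 2991 and 8173. Much of this was Vim, at 1251 and 1196 CPM against 1974 and 6647. Of its 5 tested genes 2 were lower in the neuron libraries within both numbers and 0 higher. Of all tested genes, 27% were lower within both numbers and 27.4% higher. Of the 10 genes of the list, Pax8 and Isl1 were at 0 in all 4 libraries, while Pax2 and Gata3 had at most 2 counts in any. Sums were 541 and 815 CPM against 1475 and 673 for glial markers, 88.8 and 171 against 290 and 123 for hair cell markers, and 209 and 141 against 243 and 466 for mesenchymal markers. Immune cell markers were at or near 0, with 20 and 1 counts in the neuron libraries and 3 and 0 in the proliferating libraries. The part of these differences in the results below was not tested, nor was whether the labels of the groups are exchanged. Every direction given here follows the labels and would turn round with them. In bulk RNA, fewer cells of a type and less RNA per cell cannot be told apart.

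Of the Sprouty genes, Spry2 was the one lower in the libraries labelled neuron beyond the counting interval within both numbers. Its protein inhibits signalling from FGF and other receptors to ERK. Spry2 (chromosome 14, 105891947 to 105896819, minus strand, GRCm38) had 60 and 16 counts, or 15.3 and 31.8 CPM, in neuron 1 and neuron 2, against 26 and 191 counts, or 81.1 and 336 CPM, in proliferating 1 and proliferating 2. Both neuron libraries lay below both proliferating libraries. Within number 1 the neuron level was 0.189 of the proliferating level (95% interval 0.117 to 0.312, counting error only), and within number 2 it was 0.0947 (0.0530 to 0.158).

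The log2 fold change of Spry2 (neuron over proliferating) in edgeR's quasi-likelihood model with group alone was -3.18, with an SE of 1.13, an unadjusted p of 0.0152 and an adjusted p of 0.9996. That model called 0 of 9009 tested genes higher and 0 lower, a background of 0%, with 31 lower (0.344%) and 66 higher (0.733%) at an unadjusted p under 0.05; Spry2 and Dusp4 were the members among those lower. With the replicate number as a further factor, Spry2 fell by 2.89 (log2, SE 0.64), with an adjusted p of 0.0051 in edgeR. It was the 1 member called, where 29 of all tested genes (0.322%) were called lower and 56 (0.622%) higher. At an unadjusted p under 0.05 this model had 336 genes lower (3.73%) and 556 higher (6.17%), and the members were Spry2, Spry4, Dusp4 and Etv5, all lower. The call ended with a correction for GC content in that model (-3.07, adjusted p = 0.0659 in edgeR) and with limma on the deposited RPKM values, where the estimates were -1.59 on log2(RPKM + 0.1) and -0.88 on log2(RPKM + 1). Without proliferating 2 the estimate with group alone was -1.78.

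Spry4, a second Sprouty inhibitor of Ras and ERK activation (chromosome 18, 38586247 to 38601415, minus strand), had 54 and 1 counts in neuron 1 and neuron 2, or 13.8 and 1.99 CPM. In proliferating 1 and proliferating 2 it had 9 and 43 counts, or 28.1 and 75.6 CPM. The groups did not overlap, but the neuron 2 value is below the 3-count limit of that library. The ratio was 0.491 within number 1 (0.240 to 1.13) and 0.0263 within number 2 (0.000651 to 0.155), so within number 1 the counting interval includes no difference. The log2 fold change was -2.59 (SE 1.29) with group alone and -2.45 (SE 0.83, adjusted p = 0.148 in edgeR) with replicate number.

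Spry1, the Sprouty gene known in mouse for limiting growth factor signalling in kidney development (chromosome 3, 37639947 to 37644598, plus strand), behaved differently in the numbers. It had 48 and 5 counts in the neuron libraries, or 12.2 and 9.94 CPM, against 3 and 130 counts in the proliferating libraries, or 9.36 and 229 CPM. Proliferating 2 was the 1 high library, and the other 3 libraries lay close together, so the groups overlapped. Within number 1 the ratio was 1.31 (0.422 to 6.57) and within number 2 it was 0.0435 (0.0139 to 0.104). An antisense annotation, Gm42922, overlaps Spry1 and has no row in the count tables. Spry1 was the 1 member that did not pass the count filter, which asks for about 16.2 CPM of unscaled remaining counts in 2 libraries. With a filter of 10 counts in 2 libraries its log2 fold change was -3.34 (SE 1.39) with group alone and -2.28 (SE 0.81, adjusted p = 0.180 in edgeR) with replicate number. With the main filter Spry1 passed when proliferating 1 was left out, at -4.32 with group alone, and did not pass when proliferating 2 was left out, so it has no value there. On the per-length scale the 3 Sprouty genes together held 14.4 and 10.5 RPKM of remaining counts in the neuron libraries, against 34.3 and 182 RPKM in the proliferating libraries.

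**Figure D1:**
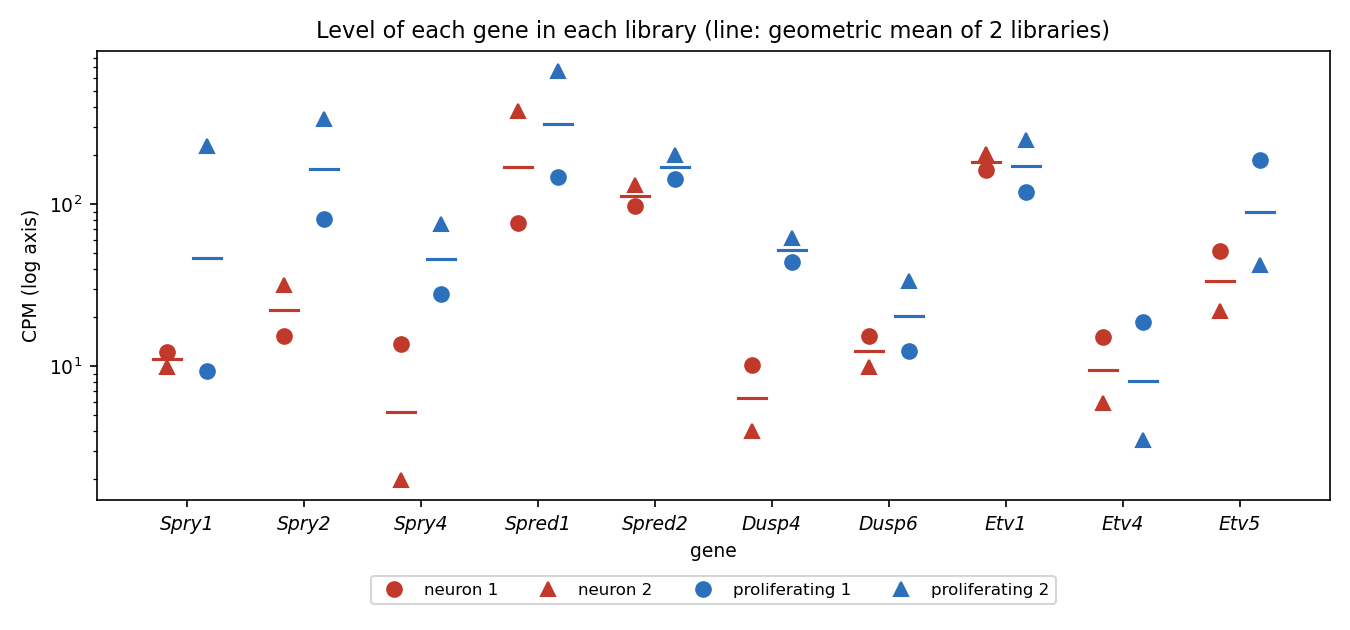
CPM of the 10 genes (log axis) in neuron 1 and 2 (red, left of each pair) and proliferating 1 and 2 (blue), circles for number 1, triangles for number 2 and lines for geometric means. The red symbols lie below the blue ones without overlap for Spry2, Spry4, Spred2 and Dusp4, and Spry1 is high in proliferating 2 alone at 229 CPM.

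Spred genes were less different between the groups. Spred1, which recruits the RasGAP neurofibromin to the membrane (chromosome 2, 117121374 to 117182279, plus strand), had 301 and 188 counts, or 76.8 and 374 CPM, in the neuron libraries and 47 and 376 counts, or 147 and 661 CPM, in the proliferating libraries. Its libraries were ordered by number first, with both libraries of number 2 above both of number 1, so the groups overlapped. Within each number the neuron library was nevertheless lower, at 0.524 (0.384 to 0.728) in number 1 and 0.565 (0.472 to 0.675) in number 2. The log2 fold change was -0.85 (SE 1.16) with group alone and -0.88 (SE 0.58, adjusted p = 0.712 in edgeR) with replicate number, and without proliferating 2 the first of these was 0.65.

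Spred2, the second Spred inhibitor (chromosome 11, 19924375 to 20024026, plus strand), had SDs of log2 CPM of 0.30 in the neuron libraries and 0.35 in the proliferating libraries (n = 2 each). It had 380 and 66 counts, or 96.9 and 131 CPM, in the neuron libraries and 46 and 115 counts, or 143 and 202 CPM, in the proliferating libraries. The groups did not overlap, and the ratios were 0.676 (0.497 to 0.939) in number 1 and 0.649 (0.472 to 0.886) in number 2. Its group means of log2 CPM, 6.84 in the neuron libraries and 7.42 in the proliferating libraries, lay farther apart than these SDs. The log2 fold change of -0.60 was smaller than its model SE of 0.94 with group alone, and the adjusted p with replicate number was 0.859 in edgeR. Both Spred values turn positive on the deposited RPKM, whose totals include the rRNA-like genes. There the median of all genes also shifts upward. On log2(RPKM + 0.1) the values were 0.26 for Spred1 and 0.33 for Spred2, and the median of all genes was 0.81.

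The phosphatase genes gave unlike estimates, and whether they differ from each other was not tested. Dusp4, a nuclear phosphatase of ERK and related kinases (chromosome 8, 34807297 to 34819894, plus strand), had 40 and 2 counts in the neuron libraries, or 10.2 and 3.97 CPM. In the proliferating libraries it had 14 and 35 counts, or 43.7 and 61.5 CPM. The groups did not overlap and the proliferating libraries were close to each other. The ratio was 0.234 (0.124 to 0.465) in number 1 and 0.0646 (0.00753 to 0.251) in number 2, so both counting intervals lie below 1. The log2 fold change was -2.80 (SE 1.22, unadjusted p = 0.0393 in edgeR) with group alone and -2.75 (SE 0.80, adjusted p = 0.0602 in edgeR) with replicate number. Dusp4 passed the count filter through the proliferating libraries alone, so a difference in this direction was built into its being tested.

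Dusp6, the cytoplasmic ERK phosphatase used as a readout of FGF activity in mouse embryos (chromosome 10, 99263231 to 99267489, plus strand), had a smaller estimate on few counts. Its counting intervals overlapped those of Dusp4 in both numbers. It had 60 and 5 counts, or 15.3 and 9.94 CPM, in the neuron libraries and 4 and 19 counts, or 12.5 and 33.4 CPM, in the proliferating libraries. The groups overlapped: proliferating 1 lay between the neuron libraries. The ratio was 1.23 (0.455 to 4.65) in number 1 and 0.297 (0.0868 to 0.824) in number 2. The log2 fold change was -0.86 (SE 1.41) with group alone and -0.72 (SE 0.88, adjusted p = 0.903 in edgeR) with replicate number. Both estimates were smaller than their SEs.

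**Figure D2:**
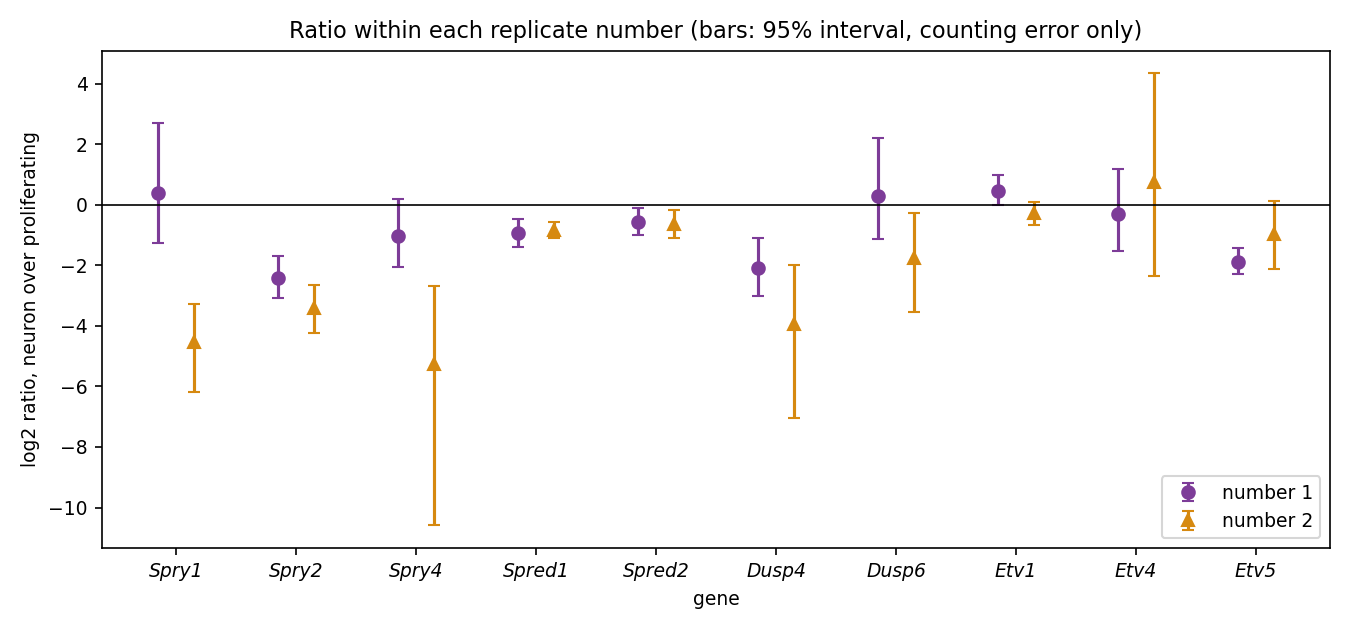
Log2 ratio of neuron over proliferating (vertical axis) for each gene within number 1 (circles) and number 2 (triangles), with 95% intervals that cover counting error only. Both intervals lie below 0 for Spry2, Spred1, Spred2 and Dusp4, and 1 interval includes 0 for Spry1, Spry4, Dusp6 and Etv5.

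The ETV factors gave unlike estimates, and whether they differ from one another was not tested. Etv5, a PEA3 factor often used as a readout of FGF activity (chromosome 16, 22381309 to 22439719, minus strand), had 200 and 11 counts in the neuron libraries, or 51.0 and 21.9 CPM, against 60 and 24 counts in the proliferating libraries, or 187 and 42.2 CPM. Proliferating 1 was high and the groups overlapped, since neuron 1 lay above proliferating 2. The ratio was 0.273 (0.203 to 0.370) in number 1 and 0.518 (0.229 to 1.10) in number 2. The log2 fold change was -1.62 (SE 1.09) with group alone and -1.48 (SE 0.65, unadjusted p = 0.0240 and adjusted p = 0.385 in edgeR) with replicate number.

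Etv1, a PEA3 factor that also specifies neuron classes in other parts of the mouse nervous system (chromosome 12, 38779380 to 38870484, plus strand), had 640 and 103 counts, or 163 and 205 CPM, in the neuron libraries. In the proliferating libraries it had 38 and 141 counts, or 119 and 248 CPM. The neuron libraries lay between the proliferating ones, and the ratios pointed in opposite directions, at 1.38 (0.993 to 1.96) in number 1 and 0.826 (0.634 to 1.07) in number 2. Its log2 fold change was 0.00 (SE 0.97) with group alone and 0.09 (SE 0.58) with replicate number, and the sign changes with the scaling. The third PEA3 factor gene, Etv4 (chromosome 11, 101769742 to 101785371, minus strand), was the least covered of the 3. It had 59 and 3 counts, or 15.1 and 5.96 CPM, in the neuron libraries and 6 and 2 counts, or 18.7 and 3.52 CPM, in the proliferating libraries. Both libraries of number 1 were above both of number 2, the ratio intervals ran from 0.348 to 2.28 and from 0.194 to 20.3, and a difference was not detectable at this depth. Its log2 fold change was 0.02 (SE 1.89 with group alone).

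Over all 10 members, 6 were lower in the neuron libraries within both numbers (Spry2, Spry4, Spred1, Spred2, Dusp4 and Etv5) and 0 were higher within both. Of all tested genes, 27% were lower within both numbers and 27.4% higher. The libraries of the groups did not overlap, with neuron lower, for 4 members (Spry2, Spry4, Spred2 and Dusp4), where this held for 8.5% of all tested genes, and with neuron higher for 0 members and 9.41% of all tested genes. Spry2 and Dusp4 had log2 ratios under -1 in both numbers, as did 3.3% of all tested genes. The median log2 fold change of the 9 tested members was -0.86 with group alone and -0.88 with replicate number, beside medians of -0.03 and -0.03 for all tested genes. Within number 1 the median log2 ratio was -0.92 for the tested members and 0.03 for all tested genes, and within number 2 it was -0.90 and -0.03. The members' median was -2.45 without neuron 1, where Spry1 passed the filter and Etv4 did not, and it turned positive with limma on log2(RPKM + 0.1), at 0.26 with 4 of 9 members negative, where the median of all genes was 0.81. These counts and medians are descriptions of genes selected with earlier results known, and the filter favours members that are high in 1 group.

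**Figure D3:**
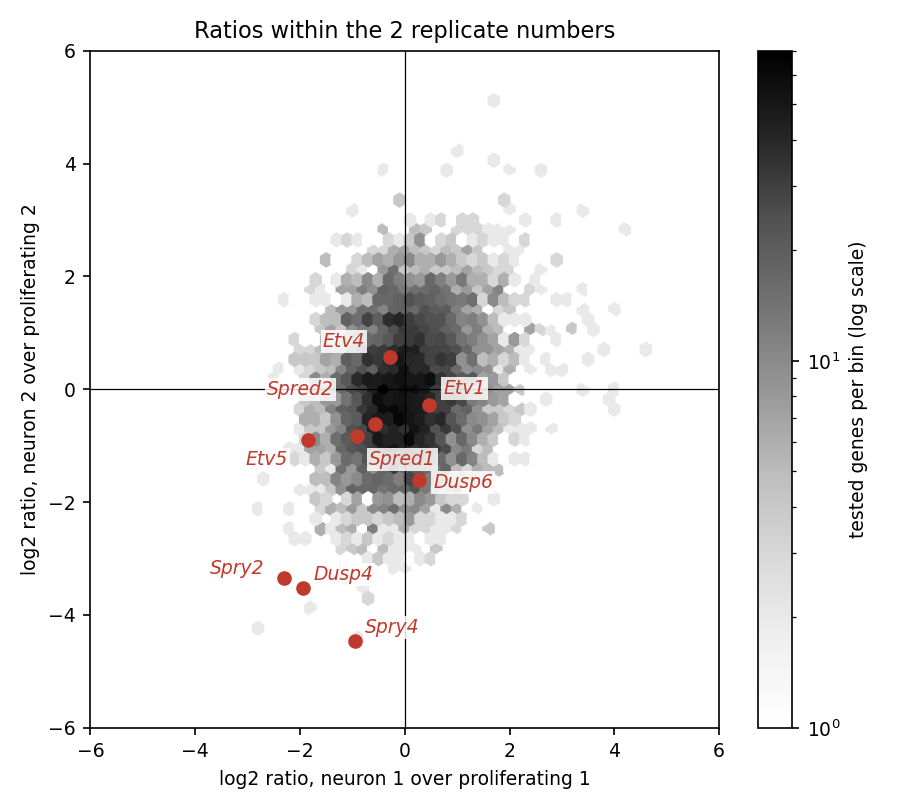
Log2 ratio of neuron over proliferating in number 1 (horizontal axis) against number 2 (vertical axis) for the 9009 tested genes (grey, darker for more genes per bin, log scale) and the 9 tested members (red). Spry2, Dusp4 and Spry4 sit at the lower left edge, while Etv1, Etv4 and Dusp6 have opposite signs in the numbers.

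Levels of different genes were compared per length, as RPKM of the remaining counts. In the proliferating libraries Spred1 had 22.7 and 86.3 RPKM and Spry2 had 23.6 and 82.5 RPKM, which differed by less than the libraries did. Etv5 led in proliferating 1 at 41.7 RPKM and Spred1 in proliferating 2, with Spry1 next at 84.9 RPKM. In the neuron libraries Etv1 had 15.0 and 12.7 RPKM and Spred1 had 13.1 and 42.9 RPKM, and these were the highest members in both. Spry2, among the top 3 members in both proliferating libraries, was the eighth of 10 in neuron 1 at 4.91 RPKM and the third in neuron 2 at 6.87 RPKM. Dusp4 had 5.08 and 1.33 RPKM in the neuron libraries and 19.7 and 23.5 RPKM in the proliferating libraries. Etv5, the third in neuron 1, had 12.5 RPKM there and 3.62 RPKM in neuron 2, a wider gap than that to either neighbour in the order of neuron 1. Spred2 stood low on this scale (3.46 and 3.16 RPKM in the neuron libraries, 4.65 and 5.53 RPKM in the proliferating libraries) because its counts were divided by the longest length of any member, 33833 bases, against 3767 bases for Spry2.

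Other genes of the pathway were read from lists. Among 21 FGF ligands 1 passed the count filter, Fgf12, an intracellular FGF that does not act through the receptors, with a log2 fold change of 0.20 (SE 1.23). Of 7 receptors and coreceptors 4 were tested and 0 called with either model, and their median was -0.87 with group alone. The receptor Fgfr1 had 434 and 9 counts in the neuron libraries, or 111 and 17.9 CPM. In the proliferating libraries it had 78 and 29 counts, or 243 and 51.0 CPM. Its log2 ratios were -1.13 in number 1 and -1.44 in number 2. For the receptor Fgfr3 the ratios were -1.64 and -1.08. The other tested genes of the list, picked for mention after their values were seen, were lower in number 1 and higher in number 2, with ratios of -0.98 and 0.53 for Fgfr2 and -0.86 and 0.99 for the decoy receptor gene Fgfrl1. The list median was -1.05 in number 1 and -0.27 in number 2. Without proliferating 1 the estimate for Fgfr1 was 0.39.

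The relay from receptor to ERK had 20 tested genes of 22, with 0 called and a median of 0.09. Nras, which encodes a Ras GTPase, stood at 2.12 on the log2 scale (SE 1.14). Nras was called with replicate number by DESeq2 (1.99, adjusted p = 0.0147), but not by edgeR (2.01, adjusted p = 0.0956). Limma on the deposited RPKM also called Nras, on a scale shifted upward for most genes. On log2(RPKM + 0.1) it called 666 genes higher and 9 lower, and on log2(RPKM + 1) 1018 higher and 12 lower. Of 20 further inhibitors 15 were tested, 0 were called and the median was -0.38. Lrig1, which restrains receptor tyrosine kinases, stood at -1.92 (SE 1.03) and the RasGAP gene Nf1 at 0.045 (SE 1.02), a value that turns negative under other scalings. Of 18 other ETS factors 10 were tested with 0 called and a median of -0.36, with 0.83 (SE 1.01) for Gabpa and -0.12 (SE 0.95) for Elf2.

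Immediate-early targets of ERK held the other called genes. Of 17 genes 11 were tested, and with replicate number 2 fell and 0 rose. Of all tested genes, that model called 0.322% lower and 0.622% higher. Within both numbers 7 tested genes of the list were lower and 1 was higher, beside 27% and 27.4% of all tested genes. Jun, an AP-1 subunit, had 177 and 20 counts in the neuron libraries, or 45.15 and 39.7 CPM. In the proliferating libraries it had 45 and 242 counts, or 140 and 425 CPM. With replicate number Jun fell by 2.49 (log2, SE 0.63), with an adjusted p of 0.0236 in edgeR. Phlda1, a pleckstrin-domain gene induced by FGF and ERK, had 36 and 18 counts (9.18 and 35.8 CPM) against 5 and 409 (15.6 and 719 CPM). It fell by 2.82 (SE 0.76, adjusted p = 0.0377 in edgeR). Phlda1, like Spry1, was high in proliferating 2 alone, and without that library its estimate with group alone was 0.51. Neither call held under the GC correction (adjusted p = 0.251 for Jun and 0.392 for Phlda1 in edgeR). The list median was -0.97 with group alone and -0.73 with replicate number.

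**Figure D4:**
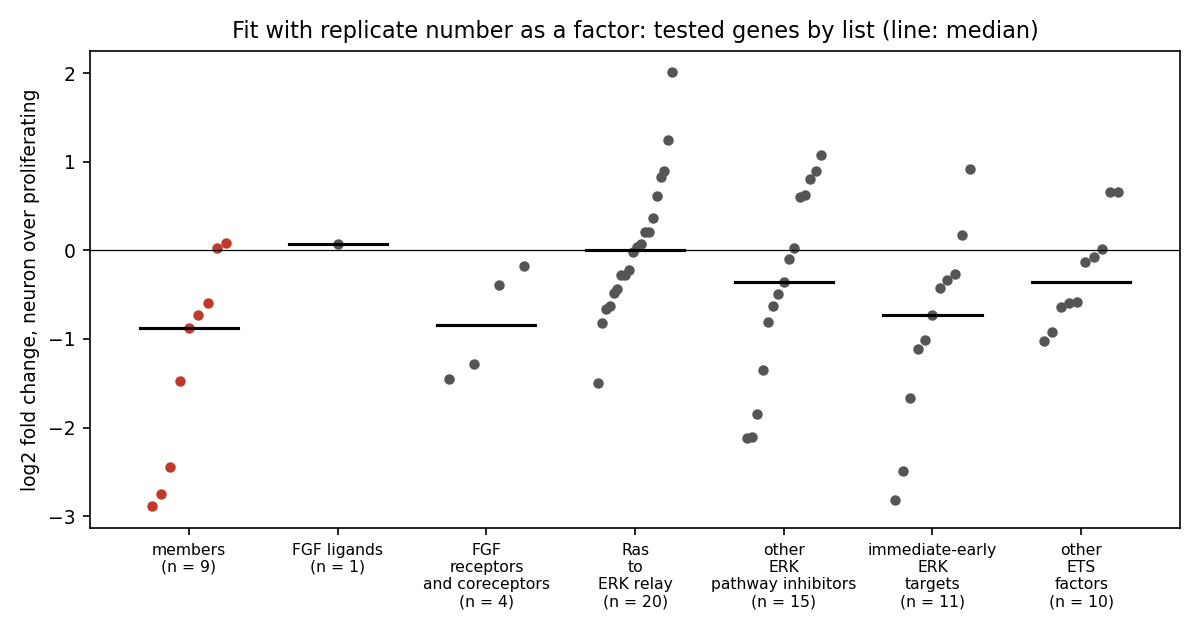
Log2 fold change of neuron over proliferating (vertical axis) in the model with replicate number, for the 9 tested members (red) and the tested genes of each pathway list (grey), with lines at the medians. The members and the immediate-early targets reach lowest, to -2.89 for Spry2 and -2.82 for Phlda1, and the relay genes centre near 0.

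The genes whose pattern over the 4 libraries was closest to the mean of the tested members were Sgpl1, Snx9, Frmd4a, Id2 and Wasf1, out of 5352 candidates whose log2 CPM averaged 5 or more. Their Euclidean distances on gene-centred log2 CPM were 0.062, 0.14, 0.16, 0.18 and 0.18. The tested members themselves lay at distances from 0.84 for Spred2 to 2.38 for Etv4. The 5 genes were selected as the closest of the candidates, so their lying nearer than the members follows from that choice.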

How the data were processed

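DNase-treated total RNA was depleted of ribosomal RNA and made into stranded libraries, per the labels' protocols. Per the submitters' processing notes, HISAT2, SAMtools, featureCounts and DESeq2 were used with build mm10; versions, annotation and strand setting are not given in the sources used here. Reads of antisense genes could therefore not be told apart. The authors deposited raw counts per gene and RPKM values, 1 file of each per library. The authors' RPKM totals include ribosomal RNA: counts, totals and RPKM gave 1 length per gene in every library (relative tolerance 0.001) for 17709 of 17709 genes checked.

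Counts without 7 genes (mt-Rnr1, mt-Rnr2, Rn18s-rs5, Gm15564, Lars2, AY036118, Mir6236) were fitted with edgeR 4.0.16 in R 4.3.3 (quasi-likelihood test, TMM, filterByExpr, group alone), leaving 9009 genes. The Benjamini-Hochberg adjustment ran over all of them, with calls at 0.05. The model with replicate number leaves 1 residual degree of freedom in place of 2. Its p-values therefore lean on spread shared over the tested genes, more than on that of the gene alone. The labels do not say what a number shares; deviations from the group means correlated at 0.74 between same-numbered libraries, which is 1 value, since with 2 libraries per group those of number 2 mirror those of number 1. Log2 CPM used a prior count of 2. Count ratios within a number have exact 95% intervals for counting error only, since reads are not independent molecules. For levels, RPKM was rescaled to the remaining counts. The limma fits used the deposited RPKM without this rescaling, so their totals include the rRNA-like genes. Gene positions are from GENCODE M21 (GRCm38). Alternatives used DESeq2 1.42.0, limma 3.58.1, other scalings and filters, and a GC spline with 5 degrees of freedom (GC known for 96.1% of tested genes). The edgeR fits with group alone and with replicate number were tested on simulated data. So were DESeq2, the GC correction and limma with the 0.1 offset, each with replicate number. That simulation used random GC values and values without gene length in place of RPKM. Its counts were drawn from the fitted model with replicate number. Its outcome is not given here, so it vouches for none of these fits. The other scalings, filters and left-out-library fits were not tested this way. Members and lists were chosen with earlier results of these data known. The text names all members, the called genes of each pathway list or else the 2 with the highest mean (1 of these is not reported here), 4 markers, and the 5 genes of most similar pattern.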

Additional observations from a re-analysis of the deposited data

How the results depend on the processing

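With group alone, edgeR called 0 genes and 0 members under every scaling, filter and left-out library, as did DESeq2 and limma; the numbers called were 0 to 0 over the left-out libraries. With the replicate block, the genes called higher and lower were 56 and 29 (1 member lower, Spry2); with DESeq2 size factors 23 and 9, upper-quartile scaling 48 and 26, library totals 36 and 19, no filter 34 and 9, a filter of 10 counts in 2 libraries 59 and 38, rRNA-like genes kept 42 and 15, and DESeq2 39 and 29, each with 1 member lower. With the GC correction they were 0 and 4, and with limma 666 and 9 on log2(RPKM + 0.1) and 1018 and 12 on log2(RPKM + 1), each with 0 members. The limma medians of all genes were 0.81 and 0.34. Those fits used the deposited RPKM, whose totals include the rRNA-like genes. These genes took 88.2% and 92.6% of counts in neuron 1 and neuron 2, and 90.7% and 98.1% in proliferating 1 and proliferating 2. The block was run with the labels' numbers, which may not mark pairs, and could not be run without a library, which leaves no residual degree of freedom. Over the block settings the adjusted p of Spry2 ran from 0.00366 to 0.131. The cause of these changes was not tested. Neither DESeq2 size factors nor a prior count of 0.5 turned a ratio within a number round.

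The members' median log2 fold change ran from -2.45 to -0.74 over the left-out libraries, was -1.63 with the 10-count filter, and was 0.26 and 0.069 on log2(RPKM + 0.1) and log2(RPKM + 1). On those scales Spry2 was -1.59 and -0.88, Spry4 -1.02 and -0.25, Dusp4 -1.45 and -0.61, and Etv5 -0.38 and -0.42.

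The following values turned round. On log2(RPKM + 0.1) and log2(RPKM + 1), with or without the block, the values were 0.26 and 0.20 for Spred1, 0.33 and 0.069 for Spred2, 0.35 and 0.15 for Dusp6 and 0.82 and 0.32 for Elf2. Etv1 was -0.0086 with DESeq2 size factors, -0.015 with upper-quartile scaling, -5.7e-04 with the 10-count filter, -0.045 with DESeq2 and -0.66 with the block and GC correction. Fgf12 was -0.35 with the block and GC correction. Nf1 was -0.061, -0.080 and -0.017 with upper-quartile scaling, library totals and the 10-count filter. With the block it was -0.093, and then -0.11, -0.13, -0.12, -0.015, -0.11, -0.021, -0.12 and -0.40 with DESeq2 size factors, upper-quartile scaling, library totals, no filter, the 10-count filter, rRNA-like genes kept, DESeq2 and the GC correction.

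Over the left-out libraries the log2 fold changes ran from -4.32 to -3.32 for Spry1 (no value without proliferating 2), -3.86 to -1.78 for Spry2, -4.57 to -1.67 for Spry4, -2.43 to 0.65 for Spred1, -3.69 to -2.37 for Dusp4, -1.35 to 0.072 for Dusp6, -0.42 to 0.66 for Etv1, -0.74 to 1.62 for Etv4, -2.45 to -0.17 for Etv5, -0.76 to 0.85 for Fgf12, -3.10 to 0.39 for Fgfr1, -0.75 to 0.50 for Nf1, -5.36 to 0.51 for Phlda1, -0.29 to 1.41 for Gabpa and -4.80 to 0.95 for Tubb3. Etv4 passed neither the 10-count filter nor the filter without neuron 1, and has no value there. Depth limits members with 3 or fewer counts in a library: Spry1 in proliferating 1, Spry4, Dusp4 and Etv4 in neuron 2, and Etv4 in proliferating 2.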
